A study of Mus musculus with 9 samples.

Results

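The extracellular matrix transcripts described here were those of 10 genes: the small leucine-rich proteoglycans Bgn, Dcn and Lum, the fibrillar collagen chains Col1a1, Col1a2 and Col3a1, the basement membrane collagen chains Col4a1 and Col4a2, and the glycoproteins Fn1 and Sparc. They were found as every non-control array probe whose transcript accession belonged to one of these symbols in a RefSeq gene table, which gave 11 of 39429 probes, with a pair of probes for Sparc and a single probe for each other gene. These 10 genes were read out of 23895 genes tested. All 11 probes were well above background on all 9 arrays, so each gene had a measured level in every sample.

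The arrays carried RNA of mouse retina. Adult male C57BL/6 mice had received AAP, HAN or phosphate-buffered saline (PBS) in the right eye by intravitreal injection, and retinas were collected after 7 days. The series title calls AAP and HAN high-affinity peptides against vascular endothelial growth factor (VEGF), and the labels give a dose of 1 µM, in the same words for the PBS mice. Each group had 12 mice and 3 arrays, and each array measured a pool of 4 retinas, so replicate error here is the spread between pools. The strain, sex, injected eye and time were shared by all groups, no uninjected retina was among the samples, and PBS retinas were the reference for both peptides.

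Extracellular matrix is the secreted scaffold around and between tissues. Fibrillar collagens form the load-bearing fibres of sclera, cornea, tendon and the sheaths of vessels and muscle, and small leucine-rich proteoglycans bind those fibres and set their diameter and spacing. Type IV collagen forms the sheet-like network of basement membranes, which in the eye include the inner limiting membrane of the retina, the walls of retinal capillaries and the lens capsule. Fibronectin and SPARC are secreted glycoproteins that link cells to this scaffold or modulate their contact with it, and several of these genes are known targets of TGF-beta in other tissues.

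All values below are log2 signal intensities after subtraction of the array's 75th percentile, so they place a transcript within its own array. Levels of different genes are not set against each other, because each gene has its own probe. In whole pools, fewer cells of a type and less RNA per cell cannot be told apart. No member passed an adjusted p of 0.05 in limma's test in any of the 3 comparisons. The share of all genes that passed was 0.00418% for AAP against PBS, 0.00418% for HAN against PBS and 0% for AAP against HAN. Among the members the lowest adjusted p was 0.824 for AAP against PBS, 0.341 for HAN against PBS and 0.562 for AAP against HAN.

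The pools were dissected tissue, and markers of other eye tissues differed between pools of a group. The 10 rod photoreceptor markers, which define retina, were above background on every array, with list means within 0.23 of the PBS mean on the log2 scale. The 18 lens markers, all above background on every array, summed to between 189 and 2209 times the array's 75th percentile in AAP, between 1035 and 1535 times in HAN, and between 158 and 1324 times in PBS. Skeletal muscle markers were at 120.4 (AAP 1), 2.97 (AAP 2) and 48.2 (AAP 3) times that percentile in AAP, against 2.77 to 3.09 times in HAN and 2.48 to 2.82 times in PBS. The arrays lay on 3 slides, the first with the PBS pools and AAP 1, the second with AAP 2, AAP 3, HAN 1 and HAN 2, and the last with HAN 3. HAN and PBS therefore shared no slide.

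**Figure D1:**
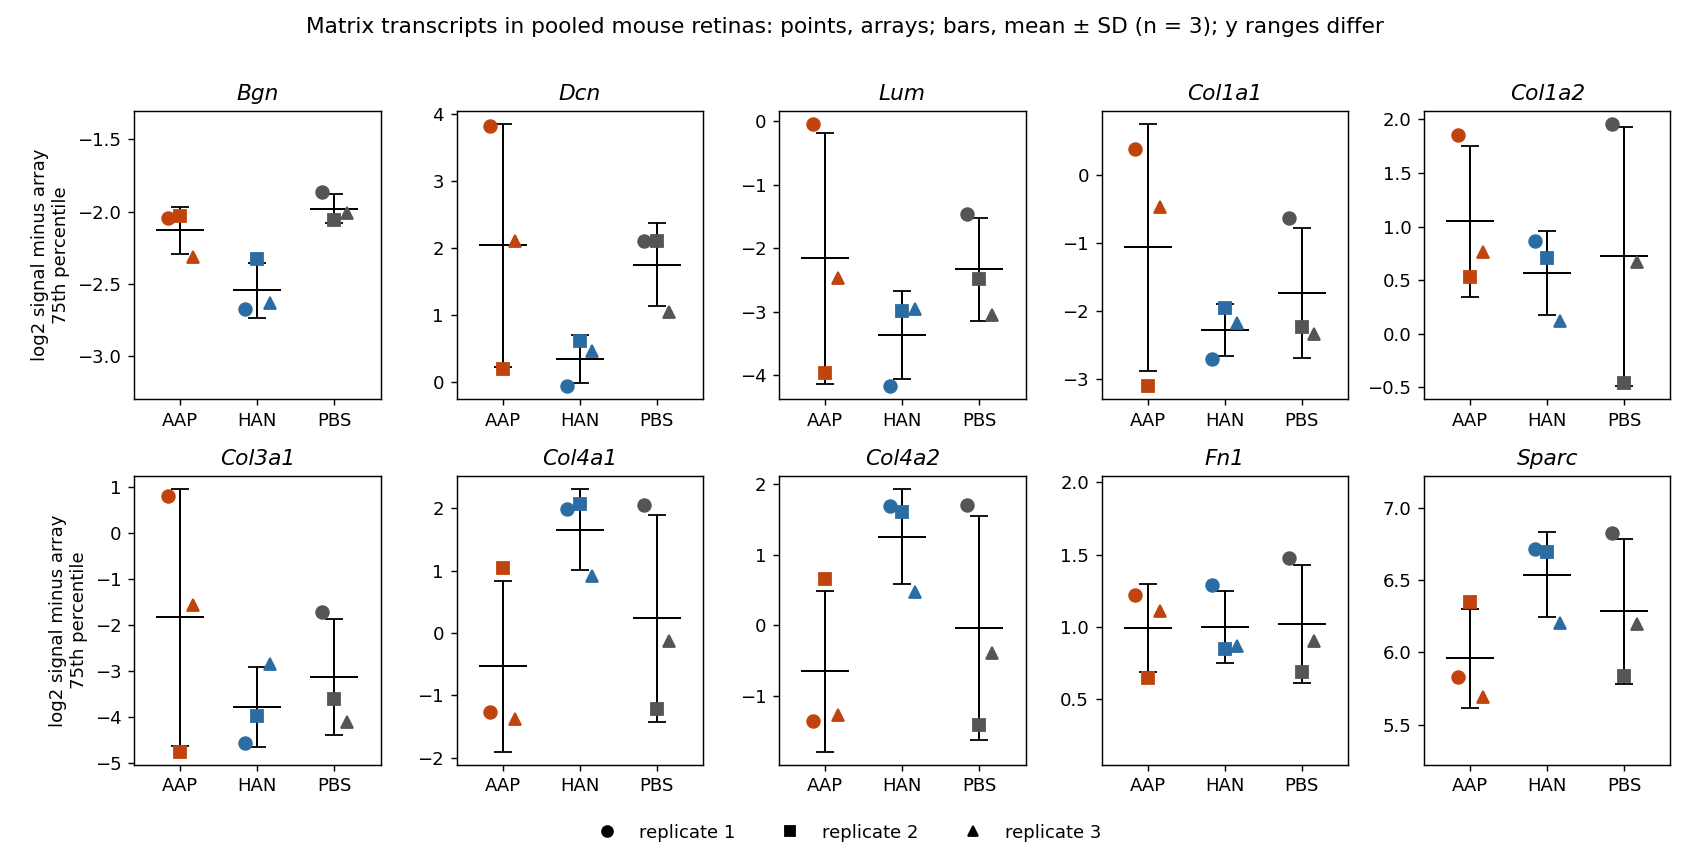
Log2 signal minus the array's 75th percentile (y axis, whose range differs between panels) for each of the 10 genes in AAP, HAN and PBS pools. Points are arrays with a symbol for each replicate number, and bars are the mean ± SD (n = 3). Bgn in HAN lies below both other groups, Dcn in HAN lies below PBS, and in most other panels the pools of AAP and PBS spread more widely than the groups differ.

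Biglycan (Bgn), a small leucine-rich proteoglycan that binds collagen fibres and TGF-beta, was the member whose HAN pools stood apart with the least spread. Its level was -2.68, -2.33 and -2.63 in HAN 1 to 3, against -1.87, -2.06 and -2.01 in PBS 1 to 3. All 3 HAN pools lay below all 3 PBS pools. The difference was -0.57 on the log2 scale (95% interval -0.85 to -0.29), which is 1.48-fold lower in HAN. With an unadjusted p of 0.00165 Bgn ranked 107th of all genes tested in this comparison, and it did not pass after adjustment (limma, adjusted p = 0.341). In HAN against PBS, 20.7% of all genes tested had groups that did not overlap and 9.86% had an unadjusted p under 0.05. Bgn and Dcn were the 2 of 10 members without overlap, and Bgn was the 1 of 10 with an unadjusted p under 0.05.

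Because HAN and PBS shared no slide, a fit with slide as a block could set them against each other only through the AAP pools. In that fit the Bgn difference was -0.39 (adjusted p = 0.747). Among the marker lists, 13 of 14 microglia and macrophage genes were lower in HAN than in PBS, 8 of them without overlap and none past the threshold. Of all genes, 20.7% had no overlap in that comparison, in either direction. The mean of these 14 markers against the PBS mean was -0.35, -0.99 and -0.17 in HAN 1 to 3. Their summed level was 65.1 to 69.2 times the array's 75th percentile in HAN against 52.0 to 57.6 times in PBS. In AAP, where Bgn lay closer to PBS, 13 of these 14 genes were also lower than in PBS, with list means of -0.36, -0.66 and -1.14. In AAP 10 of them had no overlap with PBS, beside 12.2% of all genes in either direction. Microglia were not the only list lower in HAN. Of pigment epithelium and melanocyte genes 10 of 11 were lower in HAN than in PBS, and of rod genes 9 of 10, beside 49.1% of all genes. In each of these lists 2 genes lay lower without overlap. The pigment epithelium and melanocyte mean was -0.35, 0.40 and -0.88 in HAN 1 to 3, and -0.03, -0.19 and -0.75 in AAP 1 to 3. All 18 lens genes were higher in HAN than in PBS. The part of any of these cells in the Bgn result was not tested.

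In AAP retinas Bgn was at -2.04, -2.03 and -2.32, against the same PBS values. AAP 1 and AAP 2 fell within the PBS range and AAP 3 lay below it. The difference of -0.15 (95% interval -0.43 to 0.13) did not pass (adjusted p = 0.824). Between the peptides, Bgn was 0.42 higher in AAP than in HAN (95% interval 0.14 to 0.70), again with no overlap and again without passing (unadjusted p = 0.00892, adjusted p = 0.562). The margin was very small, since AAP 3 at -2.317 and HAN 2 at -2.329 nearly met. Groups that did not overlap were found for 14.6% of all genes in AAP against HAN, and Bgn was the 1 member among them. Within the slide that held both peptides the difference was 0.33.

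Decorin (Dcn) and lumican (Lum), the other small leucine-rich proteoglycans, which bind fibrillar collagen and, for lumican, keep the fibre spacing that makes the cornea clear, varied far more between pools than Bgn. Dcn was at -0.06, 0.62 and 0.47 in HAN against 2.11, 2.11 and 1.04 in PBS. The 3 HAN pools were thus close together and all below the lowest PBS pool, and the mean was 2.66-fold lower in HAN. The log2 difference of -1.41 had a 95% interval of -3.28 to 0.45 and did not pass (adjusted p = 0.591). The interval uses a spread estimated over all 3 groups, and Dcn had an SD of 1.81 in AAP, 0.36 in HAN and 0.62 in PBS. With slide as a block the Dcn difference turned to 1.19.

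Dcn in AAP spread over the whole PBS range and part of the HAN range, at 3.82 in AAP 1, 0.20 in AAP 2 and 2.11 in AAP 3. AAP 1 was the highest of all 9 arrays, while AAP 2 stood near the HAN pools. The difference from PBS was 0.29 (95% interval -1.57 to 2.15, adjusted p = 0.955), it was -0.60 without AAP 1, and it was 2.07 with slide as a block, where AAP 1 alone meets the PBS pools (adjusted p = 0.676). Lum followed the same order within AAP, at -0.05 in AAP 1, -3.95 in AAP 2 and -2.48 in AAP 3, against -1.46, -2.48 and -3.05 in PBS. Lum in HAN was at -4.17, -2.99 and -2.95, of which HAN 1 lay below every PBS pool and the other pools lay within their range. Its difference was 0.17 for AAP against PBS (adjusted p = 0.979) and -1.04 for HAN against PBS (95% interval -3.18 to 1.11, adjusted p = 0.754). With slide as a block these were 2.29 for AAP (adjusted p = 0.623) and 1.92 for HAN (adjusted p = 0.728), so the HAN difference turned. Without AAP 1 the AAP difference was -0.88. Taken as distances from their own PBS means, Dcn and Lum were within 0.67 of each other on every array, with a median gap of 0.48.

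The fibrillar chains were led by Col3a1, which encodes type III collagen of skin, vessel walls and other pliable tissue. It was at 0.80, -4.76 and -1.56 in AAP, at -4.57, -3.97 and -2.85 in HAN and at -1.71, -3.60 and -4.11 in PBS. AAP held both the highest and the lowest of the 9 pools, which lay 47.2-fold apart, a wider range than in 99.7% of the genes tested. The mean difference of 1.30 for AAP against PBS (95% interval -1.74 to 4.35, adjusted p = 0.856) was smaller than the SD of 2.79 between the AAP pools, and it was -0.02 without AAP 1. For HAN against PBS it was -0.65 (95% interval -3.70 to 2.39, adjusted p = 0.903). The slide block gave 3.94 for AAP (adjusted p = 0.584) and 2.84 for HAN (adjusted p = 0.754), and without PBS 1 the HAN difference was 0.06, so its direction was not settled.

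Col1a1, the major chain of type I collagen, which gives tendon, bone, sclera and cornea their strength, had the same order of AAP pools. Its level was 0.38, -3.11 and -0.47 in AAP, -2.71, -1.96 and -2.17 in HAN, and -0.63, -2.24 and -2.33 in PBS. AAP 1 and AAP 3 were above every PBS pool, AAP 2 was below every one, and HAN overlapped PBS. Neither AAP (0.67, 95% interval -1.33 to 2.67, adjusted p = 0.881) nor HAN (-0.54, 95% interval -2.55 to 1.46, adjusted p = 0.875) passed against PBS. With slide as a block the differences were 2.12 for AAP (adjusted p = 0.885) and 1.58 for HAN (adjusted p = 0.825), the HAN difference was 0.01 without PBS 1, and the AAP difference was -0.05 without AAP 1. Relative to their PBS means, Col1a1 and Col3a1 were up to 1.83 apart, in AAP 1, with a median gap of 0.37.

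Col1a2, the partner chain in the type I collagen triple helix, was less variable. It stood at 1.85, 0.53 and 0.76 in AAP, 0.86, 0.71 and 0.12 in HAN, and 1.96, -0.46 and 0.67 in PBS. PBS held both the highest and the lowest pool, and the ranges of AAP and HAN lay inside it. The difference was 0.33 for AAP (adjusted p = 0.925) and -0.16 for HAN (adjusted p = 0.952) against PBS, and 1.13 and 1.27 for these peptides with slide as a block. The chains of type I collagen, Col1a1 and Col1a2, differed by up to 1.23 in their distance from the PBS mean, in AAP 3, where Col1a1 was 1.27 above it and Col1a2 0.04 above it.

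Several marker lists moved in part with these genes between pools. The mean of 10 skeletal muscle markers stood 5.96, -0.31 and 4.67 from the PBS mean in AAP 1 to 3, between -0.14 and 0.02 in HAN, and between -0.17 and 0.29 in PBS. The mean of 10 markers of cornea, iris and ciliary body epithelium was 2.56 in AAP 1 and 1.85 in PBS 1, and -1.68 to -0.18 in the other AAP and the HAN pools. The mean of 13 markers of scleral, choroidal and meningeal fibroblasts was 1.05 in AAP 1 and 0.42 in PBS 1, and between -0.43 and 0.19 elsewhere. Their part in the spread of Dcn, Lum, Col1a1 and Col3a1 was not tested. In AAP 2, the AAP pool without raised muscle markers, these 4 genes were below the PBS mean, at -1.56 for Dcn, -1.62 for Lum, -1.38 for Col1a1 and -1.62 for Col3a1. In AAP 3, whose muscle markers were raised, Dcn was at 0.36, Lum at -0.14, Col1a1 at 1.27 and Col3a1 at 1.58 from the PBS mean. The other lists were not raised in AAP 3. The cornea, iris and ciliary body mean was at -1.68 there, its lowest on any array, and the fibroblast mean at -0.02.

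**Figure D2:**
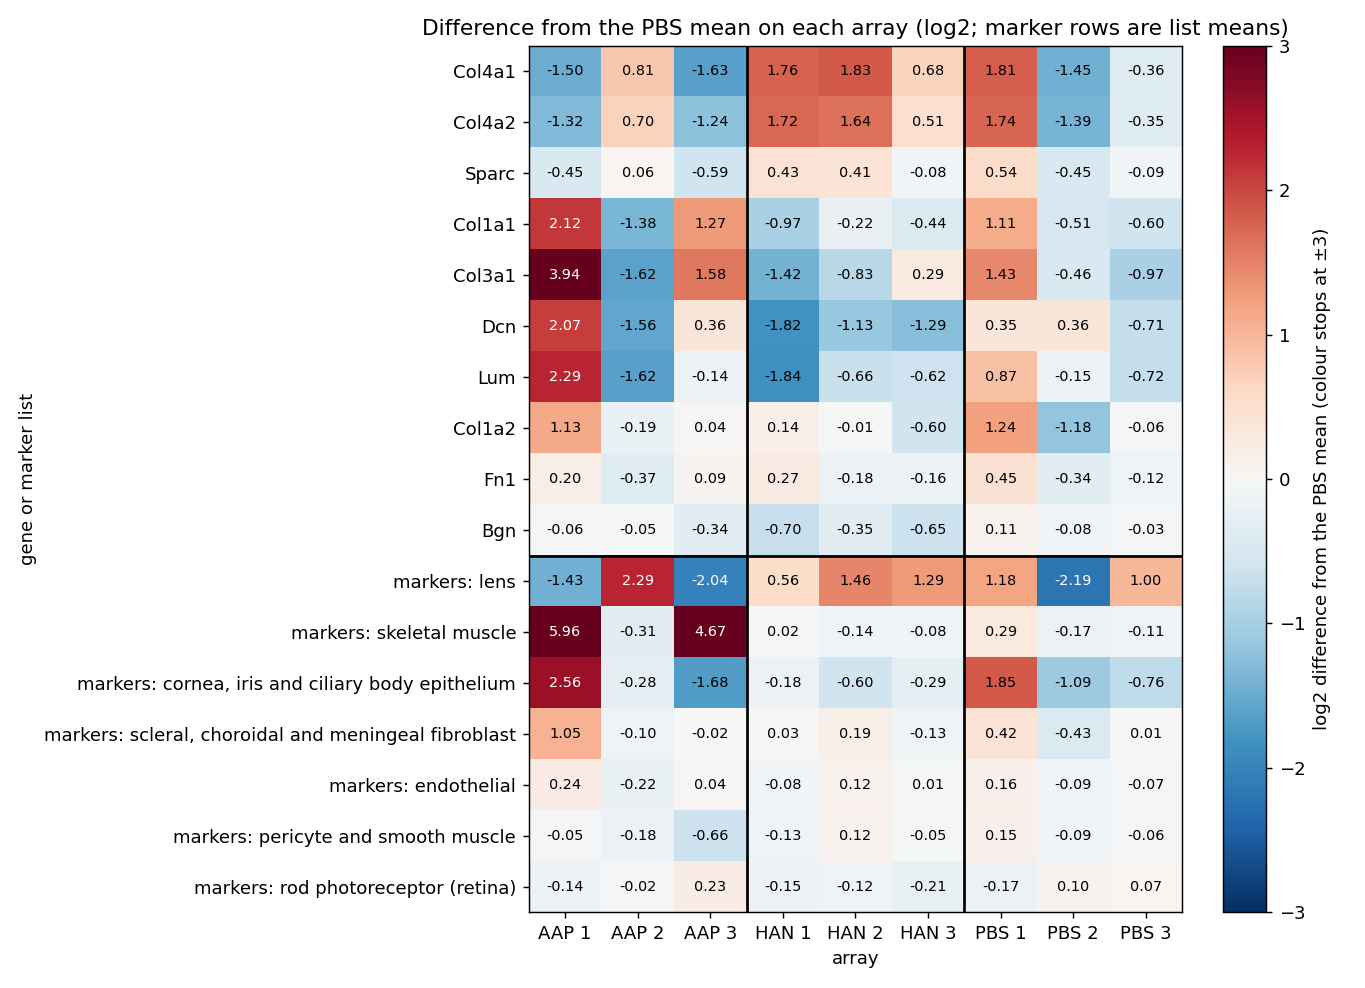
Log2 distance from the PBS mean (colour and printed value) of the 10 genes and of the mean of 7 marker lists (rows) on each array (columns, AAP, HAN, PBS). Col4a1, Col4a2 and Sparc share a pattern across the 9 arrays, and Col1a1, Col3a1, Dcn and Lum share another, in which AAP 1 is highest.

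Col4a1 and Col4a2 encode the chains that join into the heterotrimer of type IV collagen found in nearly all basement membranes. The genes lie head to head on mouse chromosome 8 and are read in opposite directions from a common promoter region. In RefSeq's GRCm38.p6 annotation their start sites, at 11312826 on the minus strand for Col4a1 and 11312805 on the plus strand for Col4a2, are 21 bases apart. With these starts the annotated transcripts overlap at their 5′ ends, and no gap lies between them. The promoter windows below, 250 bases before to 50 after each start, are shown because both annotated starts lie in this common region. The part of this region in the measured levels of both genes was not tested. Each is printed 5′ to 3′ in the gene's own direction, Col4a1 being chr8:11312777-11313076 on the minus strand and Col4a2 chr8:11312555-11312854 on the plus strand, and capitals mark the 78 bases that the windows share on opposite strands.
Col4a1: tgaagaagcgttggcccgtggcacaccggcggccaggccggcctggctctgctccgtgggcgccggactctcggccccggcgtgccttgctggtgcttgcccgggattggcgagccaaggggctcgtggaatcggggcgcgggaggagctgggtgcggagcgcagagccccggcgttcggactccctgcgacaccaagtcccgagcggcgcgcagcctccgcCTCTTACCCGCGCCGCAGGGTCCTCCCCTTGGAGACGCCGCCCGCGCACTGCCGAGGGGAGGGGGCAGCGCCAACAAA
Col4a2: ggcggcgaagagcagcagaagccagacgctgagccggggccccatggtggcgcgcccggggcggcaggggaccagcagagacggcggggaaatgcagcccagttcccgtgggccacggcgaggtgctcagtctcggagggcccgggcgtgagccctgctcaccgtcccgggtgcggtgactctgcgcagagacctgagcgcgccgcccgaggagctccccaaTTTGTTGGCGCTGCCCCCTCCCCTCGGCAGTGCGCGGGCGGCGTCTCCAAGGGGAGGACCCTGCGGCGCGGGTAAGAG

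Both windows were rich in G and C, at 74.0% and 73.7%, against a median of 52.7% over 32851 promoter windows of the same length. Both strands were searched for CCAAT (letters of the so-named box), for GGGCGG (a core of the Sp1 box) and for TATAAA (the TATA box). The motif CCAAT occurred in 1 place in each window, which 37.4% of all promoter windows also held. The Sp1 core GGGCGG occurred in 1 place in the Col4a1 window and 3 places in the Col4a2 window, and in 35.7% of all windows. The Col4a1 place and 1 of the Col4a2 places are the same site, in the bases that the windows share. The TATA letters were in neither window and in 13.6% of all windows.

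Across the pools Col4a1 was at -1.26, 1.04 and -1.39 in AAP, at 2.0, 2.07 and 0.91 in HAN and at 2.05, -1.22 and -0.12 in PBS. Col4a2 was at -1.36, 0.66 and -1.27 in AAP, at 1.69, 1.60 and 0.48 in HAN and at 1.70, -1.42 and -0.39 in PBS. For both genes HAN 1, HAN 2 and PBS 1 were high, AAP 1, AAP 3 and PBS 2 were low, and HAN overlapped PBS only through PBS 1. As distances from the PBS mean, the partner genes were a median of 0.11 apart and at most 0.39 apart, in AAP 3, although the pools themselves spanned 11-fold for Col4a1 and 8.74-fold for Col4a2.

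Against PBS, Col4a1 was 1.42 higher in HAN (95% interval -0.73 to 3.57, adjusted p = 0.644) and Col4a2 1.29 higher (95% interval -0.69 to 3.28, adjusted p = 0.651). As single pools were left out these ran from 0.70 to 2.33 for Col4a1 and from 0.60 to 2.16 for Col4a2, and with slide as a block they were 0.71 and 0.63. The AAP differences from PBS were -0.77 for Col4a1 (95% interval -2.92 to 1.38, adjusted p = 0.874) and -0.62 for Col4a2 (95% interval -2.60 to 1.36, adjusted p = 0.894), and without PBS 1 they were 0.13 and 0.25. None of these differences exceeded the SD between the PBS pools, 1.66 for Col4a1 and 1.59 for Col4a2. Between the peptides, AAP stood below HAN by a log2 difference of -2.19 for Col4a1 (95% interval -4.34 to -0.05, unadjusted p = 0.0463, adjusted p = 0.562) and of -1.91 for Col4a2 (95% interval -3.90 to 0.07, adjusted p = 0.562). An unadjusted p under 0.05 was found for 8.77% of all genes in this comparison, and for 2 of 10 members, Col4a1 and Bgn. AAP 2 overlapped the HAN pools in both genes, and AAP 2 alone stood -0.61 (Col4a1) and -0.59 (Col4a2) from HAN.

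SPARC, a collagen-binding glycoprotein that is needed for normal type IV collagen in basement membranes and is abundant in lens and glia, repeated the type IV collagen order at a smaller scale. The probe used in the fit (A_55_P2046812) was at 5.83, 6.35 and 5.69 in AAP, at 6.72, 6.70 and 6.20 in HAN and at 6.82, 5.83 and 6.20 in PBS. HAN 1, HAN 2 and PBS 1 were again the high pools, and the groups overlapped in all comparisons but AAP 2 was the only AAP pool to reach the HAN range. The difference was -0.33 for AAP against PBS (95% interval -0.98 to 0.33, adjusted p = 0.835), 0.25 for HAN against PBS (95% interval -0.40 to 0.91, adjusted p = 0.807) and -0.58 for AAP against HAN (95% interval -1.24 to 0.07, adjusted p = 0.568). The other Sparc probe (A_55_P2046807) gave distances from its PBS mean within 0.17 of the first on every array. Pearson's r with Sparc over the 9 arrays was 0.97 for Col4a1 and 0.98 for Col4a2, as a description of arrays that each measured these genes in the same RNA.

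Lens markers moved in part with Col4a1, Col4a2 and Sparc. Their list mean stood -1.43, 2.29 and -2.04 from the PBS mean in AAP 1 to 3, 0.56, 1.46 and 1.29 in HAN, and 1.18, -2.19 and 1.00 in PBS. The pools low in lens markers, AAP 1, AAP 3 and PBS 2, were the low pools of both type IV collagen genes. The order differed elsewhere, since AAP 2 had the highest lens mean and only a middle Col4a1 level, and PBS 3 had a lens mean of 1.00 with Col4a1 at -0.36 from the PBS mean. Endothelial markers, whose cells lie on type IV collagen, stayed between -0.22 and 0.24 in all pools, and pericyte markers between -0.18 and 0.15 in all pools but AAP 3, at -0.66. The part of lens RNA in the type IV collagen values was not tested.

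The genes closest to the Col4a1 and Col4a2 pattern among 15482 curated messenger RNAs were Col4a3, a type IV collagen chain of glomerular and other specialised basement membranes, Foxe3, a transcription factor of the lens epithelium, Slit3, a guidance ligand, Lix1, and Slc38a4, an amino acid transporter. Their Pearson's r with the mean of both genes was 0.99 for each over 9 arrays, and it was 0.98 to 0.99 with the farthest arrays, PBS 2 and AAP 3, left out. Foxe3 stood -1.61, 0.71 and -1.75 from its PBS mean in AAP, 1.57, 1.56 and 0.45 in HAN, and 1.68, -1.77 and 0.09 in PBS. These genes were picked for their likeness, so their values on any array are a description only. The pattern of Col1a1, Col1a2 and Col3a1 was followed most closely by Usp3 (r = 0.96), a deubiquitinase, Serpinf1 (0.96), the secreted pigment epithelium-derived factor, Cd248 (0.95), a surface protein of pericytes and stromal fibroblasts, Klf2 (0.93), a transcription factor of endothelium, and Serpinb1a (0.93), a protease inhibitor. Their r was 0.81 to 0.90 without PBS 1 and AAP 1, and Usp3 moved little in size, between -0.04 and 0.09 from its PBS mean.

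Fibronectin (Fn1), which links integrins to collagen and is a classical TGF-beta target, differed least between groups. It was at 1.22, 0.65 and 1.11 in AAP, at 1.29, 0.84 and 0.87 in HAN and at 1.47, 0.69 and 0.90 in PBS. The ranges of the 3 groups overlapped, and replicate 1 was the highest pool in each. The difference was -0.03 for AAP against PBS (95% interval -0.58 to 0.52, adjusted p = 0.985) and -0.02 for HAN against PBS (95% interval -0.57 to 0.53, adjusted p = 0.985). Differences within these intervals could not be resolved with 3 pools a group.

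**Figure D3:**
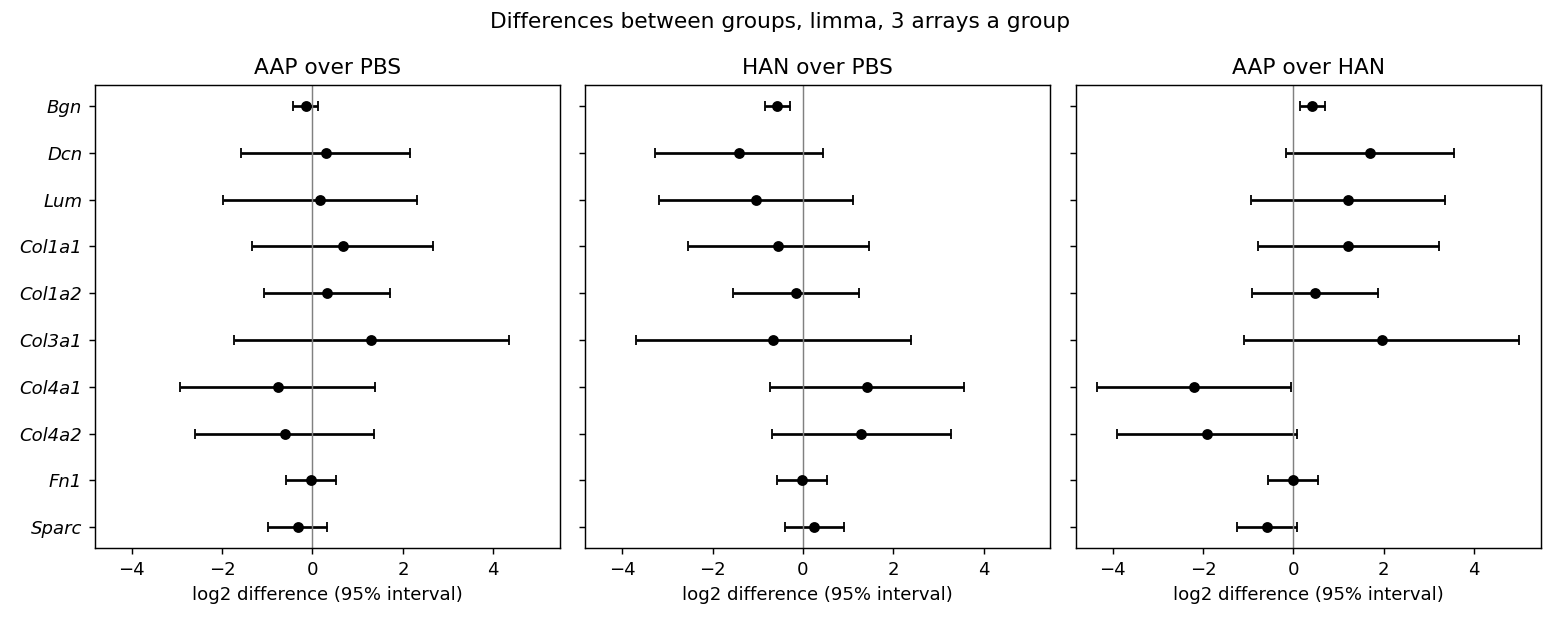
Log2 differences (x axis) with 95% confidence intervals from limma for the 10 genes in AAP over PBS, HAN over PBS and AAP over HAN. The intervals of Bgn are narrow and those of Col3a1 the widest, and the ones that leave out 0 are Bgn in HAN over PBS and Bgn and Col4a1 in AAP over HAN, before adjustment for all genes.

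Counted over the 10 members, AAP was above PBS in 5 and below it in 5, with a median difference of 0.07 beside -0.01 over all genes tested. Groups that did not overlap were found for 0 of 10 members in AAP against PBS, beside 12.2% of all genes, and an unadjusted p under 0.05 for 0 of 10 beside 6.83%. With slide as a block, which sets AAP 1 alone against the PBS pools, 6 members were higher and 4 lower in AAP, and 3 of 10 (Col3a1, Lum and Dcn) had an unadjusted p under 0.05, beside 6.85% of all genes, with none past the threshold after adjustment. HAN was above PBS in 3 and below it in 7, with a median of -0.35 beside 0.00 over all genes. With slide as a block HAN was above PBS in 9 and below it in 1, Bgn, with a median of 0.95 beside -0.03 over all genes. The HAN values of that fit include the distance of AAP 1 from the PBS pools and leave out HAN 3. They are thus not a reading of HAN apart from AAP 1. AAP was above HAN in 6 and below it in 4, with a median of 0.45 beside -0.01. The comparisons share pools, so these counts are not independent of each other. The range over the 9 arrays was 1.75-fold for Bgn, 1.78-fold for Fn1 and 2.19-fold for Sparc, and from 5.36-fold (Col1a2) to 47.2-fold (Col3a1) for the other 7 genes. Each of those 7 had a wider range than 96.7% or more of the genes tested, whose median range was 0.45 on the log2 scale.

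Genes related to the members were read from 7 lists that together held 172 genes, of which 155 were measured, and none of the 155 passed in any comparison. The lowest adjusted p in these lists was 0.623 for AAP against PBS, 0.426 for HAN against PBS and 0.562 for AAP against HAN. An unadjusted p under 0.05 was found for 3.23%, 3.23% and 9.03% of the 155 genes in these comparisons, beside 6.83%, 9.86% and 8.77% of all genes.

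Other collagens (24 of 30 measured) had a median difference of -0.03 for AAP against PBS, 0.26 for HAN against PBS and -0.22 for AAP against HAN. In these comparisons 13, 7 and 18 of the 24 genes were lower, beside 51.6%, 49.1% and 51.4% of all genes. These collagens included Col4a4, whose chain is assembled with that of Col4a3, at 0.80 in HAN against PBS (adjusted p = 0.519) and -0.92 in AAP against HAN (adjusted p = 0.562). Col4a5 was at -1.39 in AAP against HAN (adjusted p = 0.562). Col27a1, a fibrillar collagen of cartilage, was 0.65 above PBS in HAN (adjusted p = 0.427), and Col25a1, a transmembrane collagen of neurons, was 0.40 above PBS in AAP (adjusted p = 0.671). The median of other collagens in AAP against PBS ran from -0.17 to 0.12 as single pools were left out, and thus had no settled direction.

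The other 19 basement membrane genes, laminins, nidogens, perlecan and their partners, had medians of -0.10 for AAP against PBS, 0.20 for HAN against PBS and -0.27 for AAP against HAN. Of the 19 genes 16 were lower in AAP than in PBS, 14 were higher in HAN than in PBS and 15 were lower in AAP than in HAN. Of all genes tested, 51.6%, 49.1% and 51.4% were lower in these comparisons. The genes of a list were read on the same pools, so their directions are not independent. Hspg2, which encodes perlecan, was 0.93 above PBS in HAN (95% interval -0.61 to 2.46, adjusted p = 0.679), and Frem2, a basement membrane protein of epithelia, was at -0.42 in AAP against HAN (adjusted p = 0.562). As single pools were left out, the median ran from -0.27 to 0.05 for AAP against PBS, from 0.05 to 0.38 for HAN against PBS and from -0.47 to -0.18 for AAP against HAN. The lens marker means above move with these pools too, and their part was not tested.

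The other 21 leucine-rich and large proteoglycans had medians of -0.01, 0.11 and -0.07 for AAP against PBS, then HAN against PBS, then AAP against HAN. Bcan (brevican), a proteoglycan of the perineuronal matrix, was 0.25 above PBS in HAN (95% interval 0.06 to 0.43, adjusted p = 0.426), and Podn (podocan), a leucine-rich proteoglycan, was at -1.80 in AAP against HAN (adjusted p = 0.562). Elastic fibre and matricellular genes (30 measured) had medians of -0.19, 0.02 and -0.29 in the same order. In that list Spp1 (osteopontin), an integrin ligand made by macrophages and some ganglion cells, was at -0.84 in AAP against PBS (95% interval -1.23 to -0.44, adjusted p = 0.623) and at -0.51 in HAN against PBS (adjusted p = 0.432).

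Enzymes of collagen synthesis and crosslinking (25 measured) had medians of -0.09, 0.04 and -0.12. P4hb, a subunit of prolyl 4-hydroxylase, was at -0.19 in HAN against PBS (adjusted p = 0.493), and Bmp1, a procollagen C-proteinase, was at -0.76 in AAP against HAN (adjusted p = 0.562). Collagen and fibronectin receptors (18 measured) had medians of -0.18, -0.02 and -0.17, with the collagen-binding integrin chain Itga1 at 0.44 in AAP against HAN (adjusted p = 0.562). TGF-beta signalling genes and targets (18 measured) had medians of -0.17, 0.04 and -0.09. Tgfb2, the main TGF-beta ligand of the eye, was at -0.41 in AAP against HAN (adjusted p = 0.562).

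As single pools were left out, the HAN against PBS median changed sign in 5 of these lists. It ran from -0.07 to 0.19 for proteoglycans, from -0.28 to 0.20 for elastic fibre and matricellular genes, from -0.07 to 0.12 for synthesis and crosslinking, from -0.13 to 0.04 for receptors and from -0.06 to 0.09 for TGF-beta genes. In AAP against PBS the proteoglycan median ran from -0.07 to 0.01 and the elastic fibre and matricellular median from -0.42 to -0.10.

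**Figure D4:**
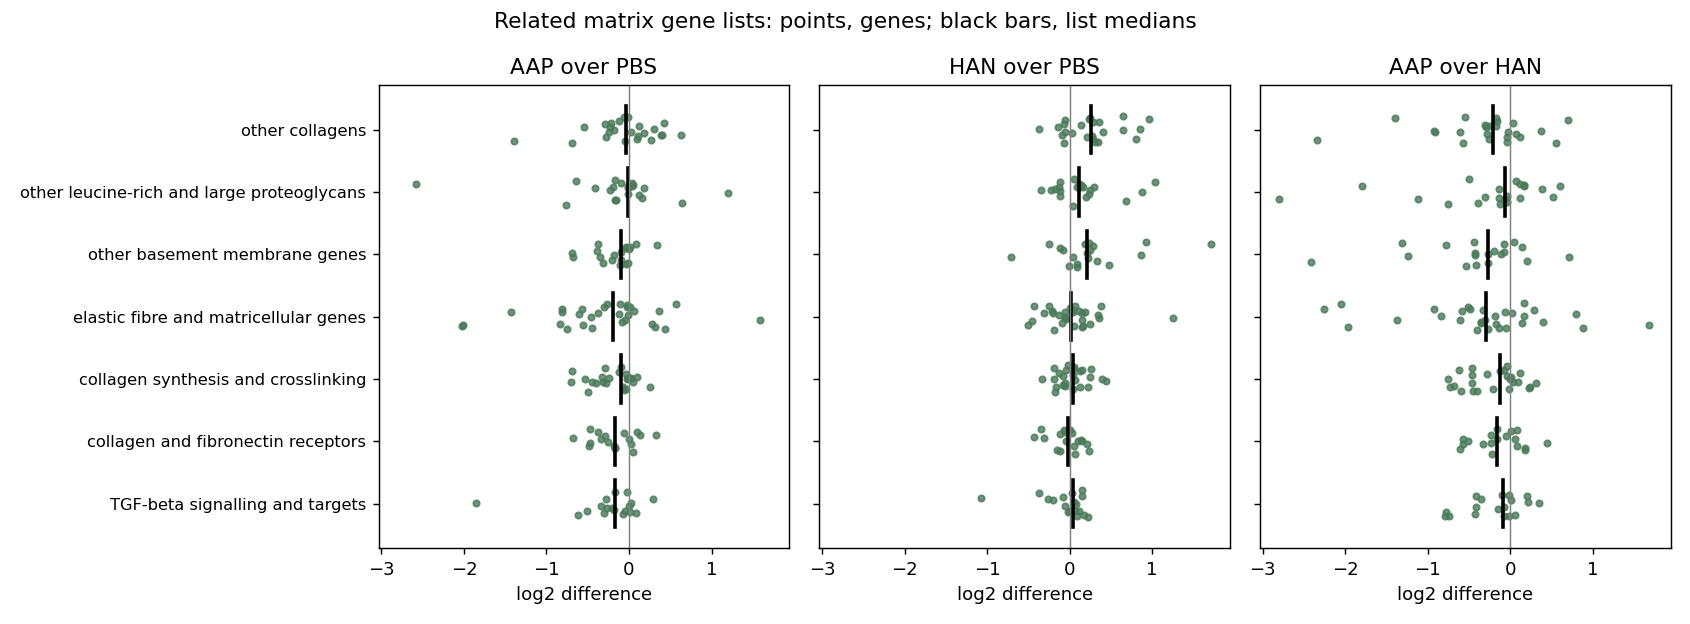
Log2 differences (x axis) of every measured gene (points) in 7 related lists (rows), with the list median as a black bar, for AAP over PBS, HAN over PBS and AAP over HAN. The medians lie between -0.29 and 0.26, and single genes reach far beyond them in both directions.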

How the data were processed

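RNA of pooled mouse retinas was measured on 9 single-colour (Cy3) Agilent arrays, 3 for each group. Per the file headers, the authors quantified spot intensity with Feature Extraction 11.0.1.1 (protocol GE1_1100_Jul11), and the deposited processed signal is a background-subtracted intensity on a linear scale, not normalised between arrays. The design was annotated on mm9. The authors' deposited value table equalled it in at least 99.7% of values on each array within a relative tolerance of 0.0001.

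Control and outlier spots were left out (103 to 160 outlier spots an array, 43020 non-control spots, 0 saturated). The deposited intensity was put on the log2 scale minus each array's 75th percentile (1319 to 2292), spots of a probe were averaged, and probes well above background on every array of any group were kept. A gene took its brightest kept probe. Probes were named through RefSeq or Ensembl accessions in a GRCm38.p6 table, which matched 26055 of 39429. The other 13374 probes went by their own array identifier. Those that were kept count among the genes tested, and so enter every share and rank over all genes.

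A limma 3.58.1 model in R 4.3.3 (lmFit, eBayes, two-sided) with a mean per group covered 23895 genes, with Benjamini-Hochberg adjustment over all of them. It was tested on simulated data. The number of arrays limits the precision: the 95% intervals had a median half-width of 1.18-fold. The members, lists and tests were chosen with earlier results of these data known. From each related list the rule named the 3 genes with the lowest p in a comparison, of which some are given, and the 5 genes most like each of 2 collagen patterns. The alternatives were normexp background correction, other normalisations and filters, slide as a block, array weights, a replicate block and leaving out pools. Normexp used the median spot signal, and local backgrounds marked as outliers were set to the array's median.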

Additional observations from a re-analysis of the deposited data

How the results depend on the processing

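Over 670 alternative values of the members, 620 kept their direction, 50 turned it and 0 passed the threshold. The lowest adjusted p was 0.103, for Bgn in HAN against PBS with array weights. The Bgn difference in HAN against PBS was -0.67 to -0.50 as single pools were left out and -0.61 to -0.39 under the other alternatives. With slide as a block, HAN against PBS turned to 1.92 for Lum, 1.27 for Col1a2, 1.19 for Dcn, 2.84 for Col3a1, 1.58 for Col1a1 and 0.39 for Fn1. These values include the distance of AAP 1 from the PBS pools and leave out HAN 3. The slide block also turned Fn1 in AAP against PBS (0.20, as within slide 1) and Col1a2 in AAP against HAN (-0.14, as within slide 2). AAP 2 alone against PBS gave 0.81 for Col4a1, 0.70 for Col4a2, 0.063 for Sparc, -1.62 for Lum, -0.19 for Col1a2, -1.56 for Dcn, -1.62 for Col3a1 and -1.38 for Col1a1. AAP 2 alone against HAN, chosen after seeing the data, gave -0.58 for Lum, -0.031 for Col1a2, -0.14 for Dcn, -0.96 for Col3a1 and -0.83 for Col1a1. Fn1 crossed 0 in HAN against PBS with normexp (0.0078), slide as a random block (0.0087) and array weights (0.096), in AAP against PBS with array weights (0.0012) and in AAP against HAN with the array median subtracted (0.0011). Col1a2 was at 0.079 with array weights in HAN against PBS.

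As single pools were left out of AAP against PBS, the differences ran from -1.56 to 0.13 for Col4a1, -1.31 to 0.25 for Col4a2, -0.88 to 1.07 for Lum, -0.26 to 0.95 for Col1a2, -0.60 to 1.21 for Dcn, -0.018 to 2.76 for Col3a1, -0.054 to 1.69 for Col1a1 and -0.20 to 0.20 for Fn1. In HAN against PBS they ran from -0.75 to 0.46 for Col1a2, -1.14 to 0.061 for Col3a1, -0.84 to 0.0096 for Col1a1 and -0.19 to 0.21 for Fn1, and in AAP against HAN from -0.12 to 0.16 for Fn1. For these turns the cause was not tested.

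Genes past the threshold numbered 1 for AAP against PBS, 1 for HAN against PBS and 0 for AAP against HAN. For AAP against PBS they were 0 with normexp, quantile normalisation, the array median, no filter on dim probes or AAP 2 alone, 60 with slide as a block and 85 within slide 1. For HAN against PBS they were 2 with slide as a block and 3 with array weights. With single pools left out they were 0 to 12 (AAP against PBS), 1 to 3 (HAN against PBS) and 0 to 12 (AAP against HAN), the 12 coming without AAP 2. Deviations of same-numbered pools correlated from -0.28 to 0.40. Pools of different numbers were not correlated as a reference, so these values do not settle whether same-numbered pools pair. The replicate block called 0 genes in each comparison and changed no member's call.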
